A study of Mus musculus with 8 samples.

Results

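The Hox genes of the HoxA, HoxB, HoxC and HoxD clusters were followed by RNA-seq in mouse embryonic stem cells (ESCs) with intact or mutated Polycomb repressive complex 2 (PRC2), before and during spinal motor neuron (SMN) differentiation. The 38 Hox genes were chosen by symbol, and not by their values, from the 36808 genes of the table. They were split by paralog group into 14 anterior genes (groups 1 to 5), 12 central genes (groups 6 to 9) and 12 posterior genes (groups 10 to 13). The study asked what happens to developmental genes when PRC2 and its mark, trimethylation of lysine 27 of histone H3 (H3K27me3), are reduced or lost. E14 is a wild-type line on a 129/Ola background, and Suz12GT, on the same background, carries a gene trap in Suz12 that fuses a shortened SUZ12 to beta-galactosidase. Suz12delta carries a truncated Suz12 on a C57/BL6 background, Eednull lacks functional EED on a BALB/cR1 background, and CJ7 is another wild-type line, on 129/S. ESCs of E14, CJ7, Suz12delta and Eednull were measured, and E14, Suz12GT, Suz12delta and Eednull cells were measured at day 5 of differentiation, after removal of leukemia inhibitory factor and addition of retinoic acid and a hedgehog agonist. Each of the 8 conditions had 1 library, so there are no replicates to set a difference against and no p-value is given. Apart from Suz12GT, the genotypes differ from E14 in background as well, and genotype, line and background cannot be told apart.

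Hox genes encode homeodomain transcription factors that give cells along the head-to-tail axis their regional identity. Within a cluster the genes lie in the order of their paralog groups, with low numbers used in anterior regions and early, and high numbers in posterior regions and late. In the hindbrain and spinal cord this code sets which motor neurons form at each level, and retinoic acid turns on the anterior part of the clusters. Polycomb complexes, Trithorax proteins and the CDX factors are textbook regulators of Hox genes, and the clusters carry broad H3K27me3 where they are silent.

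Values are FPKM (fragments mapped to a gene, scaled by its transcript length and by the library's mapped fragments) as deposited, 1 value per gene and library. A gene was compared between 2 libraries where it reached 0.1 FPKM in at least 1 of them, ratios are log2 of FPKM plus a pseudocount of 0.1, which understates the change of low genes, and at least 2-fold on this scale counted as higher or lower. A gene at 1 FPKM or more was taken as expressed. On NCBI build 37 (mm9) the HoxA genes lay on chr6:52112350-52210874, HoxB on chr11:96055630-96229570, HoxC on chr15:102751534-102867274 and HoxD on chr2:74506367-74603200. In the deposited table the 38 genes fell into 28 loci, and 6 of these loci held several Hox genes, 16 in all: Hoxa3 to Hoxa7, Hoxb2 with Hoxb3, Hoxb5 with Hoxb6, Hoxb7 with Hoxb8, Hoxd3 with Hoxd4 and Hoxd8, and Hoxd10 with Hoxd11. Transcripts of such neighbours overlap, so how reads were divided among them can affect each value, and antisense transcripts cannot be told apart from the genes unless strand was used, which is not given in the sources used here. Hoxa3 had 2 rows, and the row with the higher values was used. A value of exactly 0 need not mean absence: Hoxd3, Hoxd4 and Hoxd8, which share a locus, were all listed at 0 in Eednull ESCs, and each library listed 0 to 5 genes at 0 that were at 10 FPKM or more in all of the others.

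The labels of the cells were set against marker lists. The 6 ESC markers summed to between 460.1 and 1054 FPKM in the ESC libraries and to between 1.22 and 14.3 FPKM at day 5. The 6 motor neuron and progenitor markers (Olig2, Mnx1, Isl1, Lhx3, Nkx6-1, Chat) summed to 104 FPKM in E14 and 98.7 FPKM in Suz12GT day 5 cells, but to 12.5 FPKM in Suz12delta and 8.89 FPKM in Eednull day 5 cells, where all 6 were at least 2-fold lower than in E14. In these last 2 libraries day 5 therefore names the treatment, and Chat, which makes acetylcholine, was at 0.0127 and 0.0583 FPKM. The ESCs had been grown on irradiated embryonic fibroblasts that were removed by brief plating, and 12 fibroblast markers summed to 103 FPKM in E14, 127 in CJ7, 630.0 in Suz12delta and 285 in Eednull ESCs, and to 5.86, 20.8, 127 and 68.5 FPKM in E14, Suz12GT, Suz12delta and Eednull day 5 cells. Fewer cells of a type and less RNA per cell cannot be told apart in these bulk samples. The label of the CJ7 library says that it was prepared and sequenced with a library whose code, in the table, is that of the Eednull ESCs, so the comparison of Eednull with E14 ESCs may cross batches. The same may hold for CJ7 against E14 ESCs, Suz12delta against CJ7 ESCs and Eednull day 5 cells against Eednull ESCs.

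PRC2 is recruited to promoters rich in CG dinucleotides, so the stretch of 250 bases before the transcript start is shown for 4 genes that stand for the patterns below: Hoxb8, the highest gene at day 5, Hoxa5, an anterior gene, and the posterior genes Hoxa10, with 2 starts, and Hoxa13. The sequences are from RefSeq on GRCm38.p6, another build than that of the table, read on the strand of the gene from 5′ to 3′, with each CG in capitals.
Hoxb8, plus strand, chr11:96281655-96281904: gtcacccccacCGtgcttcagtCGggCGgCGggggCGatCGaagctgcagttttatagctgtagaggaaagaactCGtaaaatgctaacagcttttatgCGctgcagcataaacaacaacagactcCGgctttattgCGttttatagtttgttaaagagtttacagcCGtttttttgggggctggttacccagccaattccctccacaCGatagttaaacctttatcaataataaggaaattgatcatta
Hoxa5, minus strand, chr6:52204588-52204837: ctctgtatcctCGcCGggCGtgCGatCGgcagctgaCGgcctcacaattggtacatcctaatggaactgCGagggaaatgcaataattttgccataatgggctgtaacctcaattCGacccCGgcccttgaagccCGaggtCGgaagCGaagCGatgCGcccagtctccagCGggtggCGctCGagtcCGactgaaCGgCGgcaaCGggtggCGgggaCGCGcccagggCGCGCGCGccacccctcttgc
Hoxa10, minus strand, chr6:52240855-52241104: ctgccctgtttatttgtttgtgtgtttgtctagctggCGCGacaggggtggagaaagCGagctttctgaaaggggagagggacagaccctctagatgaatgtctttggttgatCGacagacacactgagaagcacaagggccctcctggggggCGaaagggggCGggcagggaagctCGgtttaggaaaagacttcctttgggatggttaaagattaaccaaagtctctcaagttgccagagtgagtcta
Hoxa10, minus strand, chr6:52234940-52235189: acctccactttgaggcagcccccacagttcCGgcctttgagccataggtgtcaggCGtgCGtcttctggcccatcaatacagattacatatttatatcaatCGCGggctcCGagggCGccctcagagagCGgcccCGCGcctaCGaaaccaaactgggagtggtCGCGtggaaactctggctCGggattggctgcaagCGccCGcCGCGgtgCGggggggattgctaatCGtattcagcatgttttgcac
Hoxa13, minus strand, chr6:52260881-52261130: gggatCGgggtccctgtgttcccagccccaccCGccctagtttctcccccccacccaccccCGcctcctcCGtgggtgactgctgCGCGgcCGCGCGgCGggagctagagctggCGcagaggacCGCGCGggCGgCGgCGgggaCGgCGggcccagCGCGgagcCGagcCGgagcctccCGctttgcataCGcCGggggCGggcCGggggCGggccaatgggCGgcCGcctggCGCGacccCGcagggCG
These stretches held 12, 28, 7, 20 and 35 CG dinucleotides. Hoxa5 and Hoxa13 had the most CG of the anterior and of the posterior windows described next, so they are not typical of their class in CG content. RefSeq promoters were matched for 22 of the 38 genes, with 24 windows, whose median was 12.5 CG over the same 250 bases, against 6 over all 32851 promoter windows. The median was 12 for 9 anterior, 9.5 for 6 central and 20 for 9 posterior windows. Not every window lay at an annotated transcript start. Of the posterior windows only those of Hoxa10 and Hoxa13 did, and none was from HoxB or HoxC. Of the others, those of Hoxd1, Hoxd4, Hoxa5, Hoxc4, Hoxd8, Hoxa9 and Hoxb8 did. The windows of Hoxd10, Hoxd12 and Hoxa11, among others, overlapped an annotated transcript. The medians and the shares below may thus include sequence that is not upstream of a start. At least 12 CG were found in 14 of the 24 Hox windows (58.3%) and in 33.5% of all windows. Searched on both strands of the 250 bases, the letters AGGTCA, a binding motif of retinoic acid receptors, were in 25% of Hox windows and 14.02% of all windows, TTTATG, a CDX motif, in 20.8% and 10.8%, and TGATNNAT, bound by HOX and PBX proteins, in 16.7% and 7.68%. A match is a description of the letters and not evidence of binding.

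Wild-type ESCs held little Hox RNA. The 38 genes together summed to 9.17 FPKM in E14 and 12.9 FPKM in CJ7 ESCs, and no gene reached 1 FPKM in E14 ESCs, where the highest was Hoxd13 at 0.786 FPKM. In CJ7 ESCs Hoxb7, at 1.08 FPKM, was the only one to reach it. The sum was 34.7 FPKM with 12 expressed genes in Suz12delta ESCs and 60.7 FPKM with 20 expressed genes in Eednull ESCs. At day 5 the sums were 554 FPKM in E14, 533 in Suz12GT, 251 in Suz12delta and 201 in Eednull cells, and 18, 23, 36 and 35 of the 38 genes were expressed. The 2 lines with the lowest sums at day 5 thus had the most Hox genes expressed, and the fewest Hox genes were expressed in E14. The share of all genes at 1 FPKM or more was not computed, so these counts have no background beside them. Of all 36808 genes, 21932 were above 0 in E14, 23544 in Suz12GT, 24155 in Suz12delta and 23739 in Eednull day 5 cells.

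**Figure D1:**
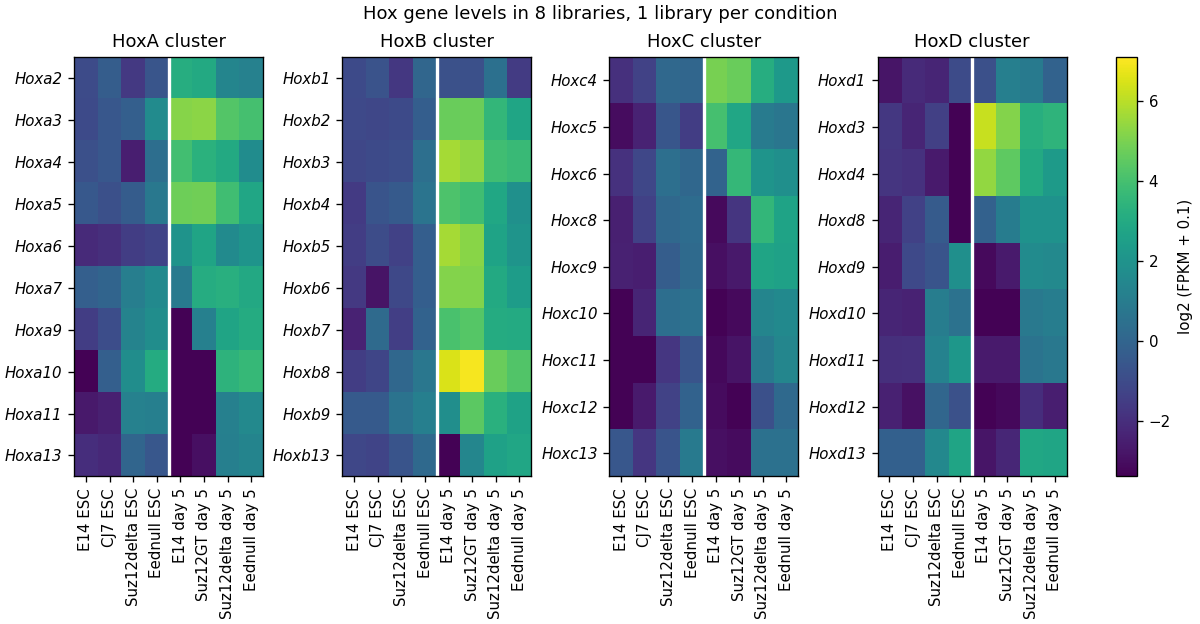
Heat maps of log2 (FPKM + 0.1) for the 38 Hox genes, 1 panel per cluster, with genes in paralog order as rows and the 8 libraries as columns (the white line parts ESCs from day 5 cells, 1 library each). At day 5 the high values of E14 end within each cluster, while Suz12delta and Eednull cells have values down to the last row of each panel; in ESCs most posterior rows are higher in these 2 lines than in E14, with Hoxc13 of Suz12delta an exception.

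Wild-type cells at day 5 held far more Hox RNA than wild-type ESCs, nearly all of it from anterior and central genes. Of the 29 genes that could be compared between E14 ESCs and E14 day 5 cells, 21 were at least 2-fold higher at day 5 and 6 lower, where 18.3% of all genes tested were higher and 25.8% lower. Over these 29 genes the median log2 ratio was 4.16, and over all genes -0.20. By paralog group, 13 of 14 anterior and 8 of 9 central genes tested were higher, and 5 of 6 posterior genes were lower. Every posterior gene was at or under 0.0586 FPKM at day 5, so those tested reached the minimum of 0.1 FPKM only in ESCs. None of them could be called higher. All lower calls are of genes under 1 FPKM in both libraries, and 0 genes were lower with a pseudocount of 1 or with a minimum of 1 FPKM. The median level was 26.4 FPKM for anterior and 1.31 FPKM for central genes at day 5, and 0 for posterior genes, and anterior genes made up 72.1% of the summed Hox FPKM and posterior genes 0.0282%.

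The highest Hox genes of E14 day 5 cells were Hoxb8 and Hoxd3. Hoxb8, a central gene of the brachial and thoracic cord, went from 0.256 FPKM in ESCs to 91.2 FPKM, a log2 ratio of 8.002. Hoxd3, a hindbrain and upper neck gene, went from 0.204 to 75.3 FPKM, a log2 ratio of 7.95. The log2 ratios of Hoxb3, Hoxc4 and Hoxc5 were 6.86, 6.88 and 7.04. Hoxb3 and Hoxc4 are cervical genes, and Hoxc5, with Hoxa5, marks the cervical cord where phrenic motor neurons arise. The other anterior and central genes above 5 FPKM were Hoxb5, Hoxd4, Hoxa3, Hoxb6, Hoxa5, Hoxb2, Hoxb4, Hoxb7, Hoxa4 and Hoxa2, in falling order from 51.8 to 8.78 FPKM. Hoxb1, the gene of hindbrain rhombomere 4, was the exception among the anterior genes, at 0.381 FPKM in ESCs and 0.483 FPKM at day 5, within 2-fold. Hoxd13 and Hoxc13, genes of digits and of tail and hair, were lower at day 5, from 0.786 to 0.0426 FPKM and from 0.587 to 0.0268 FPKM, with log2 ratios of -2.64 and -2.44. The remaining 4 lower genes, Hoxa9, Hoxa13, Hoxb13 and Hoxd10, were listed at 0 at day 5, from at most 0.349 FPKM in ESCs.

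Each cluster had a last expressed gene in E14 day 5 cells, beyond which the values were low. In HoxA it was Hoxa7 at 1.75 FPKM, in HoxB Hoxb9 at 3.32, in HoxC Hoxc5 at 15.9 and in HoxD Hoxd4 at 42.1 FPKM. The step was steep in HoxC, where the next gene, Hoxc6, was at 0.872 FPKM and Hoxc8 at 0.0138 FPKM, and in HoxD, where Hoxd8 was at 0.817 FPKM and Hoxd9 at 0.0156 FPKM. At this level of 1 FPKM the last expressed genes of Suz12GT day 5 cells lay further along every cluster. They were Hoxa9, Hoxb13, Hoxc6 and Hoxd8, at 2.14, 2.59, 12.04 and 1.91 FPKM. That order depends on the level chosen. At 0.5 FPKM the last gene of HoxC was Hoxc6 and that of HoxD Hoxd8 in both E14 and Suz12GT cells. At 3 FPKM the last gene of HoxB was Hoxb9 and that of HoxD Hoxd4 in both. At 1 FPKM the last expressed gene of Suz12delta and Eednull day 5 cells was the group 13 gene in each of the 4 clusters, at between 1.31 and 7.11 FPKM.

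**Figure D2:**
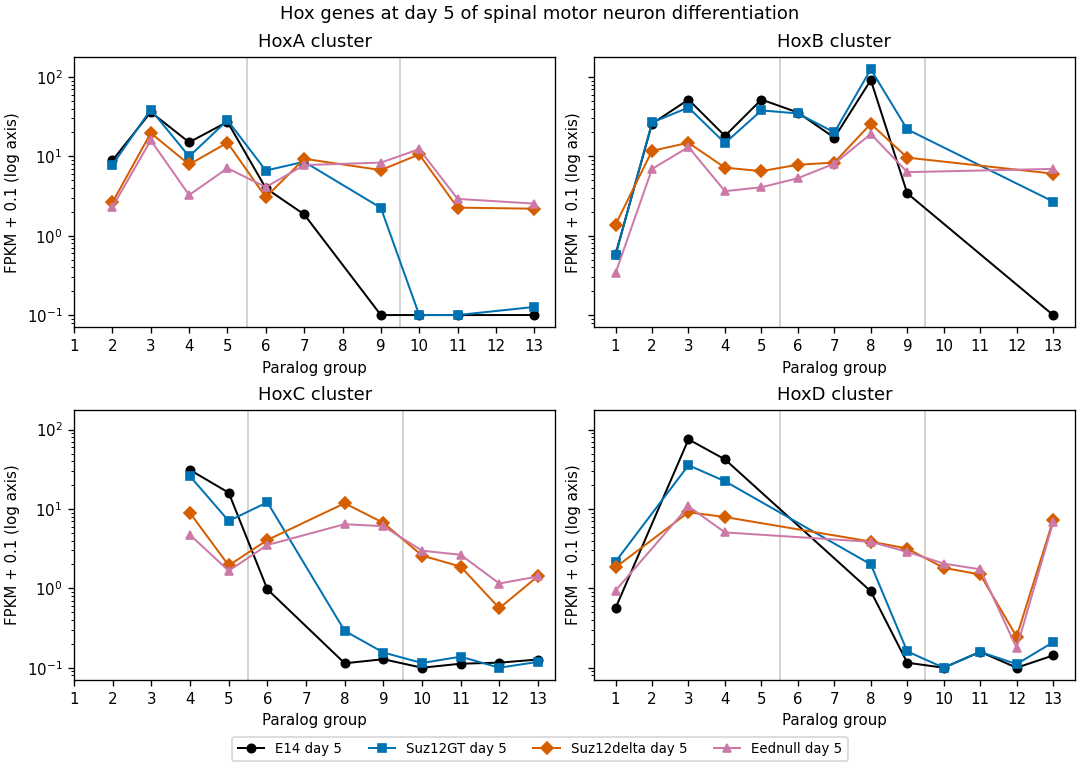
FPKM + 0.1 (log axis) against paralog group at day 5, 1 panel per cluster; each point is 1 gene in 1 library (E14 black circles, Suz12GT blue squares, Suz12delta orange diamonds, Eednull pink triangles), and grey lines part anterior, central and posterior groups. E14 drops to the floor after Hoxa7, Hoxb9, Hoxc6 and Hoxd8, Suz12GT departs upward from E14 near these boundaries and at Hoxd1 and lies below it at Hoxd3, Hoxd4 and Hoxc5, and Suz12delta and Eednull run lower than E14 over most anterior genes and higher over the posterior ones.

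In Suz12GT cells, which share the E14 background and whose motor neuron marker sum was near that of E14, most of the Hox genes that differed from wild type were central genes. At day 5, 8 of 26 genes tested were at least 2-fold higher and 2 lower than in E14, where 16.8% and 4.4% of all genes were, and the median log2 ratio was 0.09, against 0.13 over all genes. Of the 8 genes, 6 were central (of 10 tested), 1 was anterior (of 14) and 1 posterior (of 2). The posterior genes were under 0.1 FPKM in E14 and could not be called lower. Over the 14 anterior genes the median ratio was -0.28.

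The central genes that were higher were Hoxa7, Hoxa9, Hoxb9, Hoxc6, Hoxc8 and Hoxd8. The call of Hoxc8 rests on values near the minimum of 0.1 FPKM, at 0.0138 FPKM in E14 and 0.191 in Suz12GT day 5 cells. Hoxb9, a thoracic gene, was at 3.32 FPKM in E14, 21.7 in Suz12GT, 9.53 in Suz12delta and 6.22 in Eednull day 5 cells. Hoxc6, which marks the motor neurons of the forelimb, was at 0.872 FPKM in E14, 12.04 in Suz12GT, 3.97 in Suz12delta and 3.42 in Eednull day 5 cells. Hoxa7, of the thoracic region, was at 1.75 FPKM in E14, 8.44 in Suz12GT, 9.20 in Suz12delta and 7.66 in Eednull day 5 cells. The log2 ratios of Suz12GT to E14 were 2.67 for Hoxb9, 3.64 for Hoxc6 and 2.20 for Hoxa7, and for Hoxb9 and Hoxc6 the Suz12GT library was the highest of the 4. Hoxa9, also of group 9, was at 2.14 FPKM in Suz12GT, 6.61 in Suz12delta and 8.23 in Eednull day 5 cells, and was listed at 0 in E14. Hoxd8 was at 0.817 FPKM in E14, 1.91 in Suz12GT, 3.78 in Suz12delta and 3.75 in Eednull day 5 cells. For these last 2 genes the level was higher in Suz12delta and Eednull cells than in Suz12GT cells. The posterior gene was Hoxb13, the last gene of HoxB, which is used in tail bud and prostate, at 2.59 FPKM in Suz12GT, 5.95 in Suz12delta and 6.84 in Eednull day 5 cells, and was listed at 0 in E14. The anterior gene was Hoxd1, named after its values were seen, at 0.464 FPKM in E14 and 2.07 FPKM in Suz12GT cells (log2 ratio 1.94). The 2 lower genes were Hoxd3 and Hoxc5, with log2 ratios of -1.08 and -1.18.

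The highest gene of both libraries, Hoxb8, was at 91.2 FPKM in E14, 125 in Suz12GT, 25.6 in Suz12delta and 19.0 in Eednull day 5 cells, a log2 ratio of 0.45 for Suz12GT. Further along HoxC and HoxD, Suz12GT levels stayed low: Hoxc8 was at 0.191 FPKM, Hoxc9 at 0.0554, Hoxd9 at 0.0604 and Hoxd13 at 0.110 FPKM. Of these, only Hoxc8 was called higher than in E14. Posterior genes made up 0.538% of its summed Hox FPKM. Beside these values, 9 of 12 fibroblast markers and 6 of 6 endoderm markers were at least 2-fold higher in Suz12GT than in E14 day 5 cells, with summed levels of 20.8 against 5.86 FPKM and 29.1 against 3.69 FPKM. Over all genes 16.8% were higher. Among fibroblast markers Lum and Prrx1 were listed at 0 in E14 day 5 cells, and among endoderm markers Gata4 and Afp were. All 6 ESC markers were also at least 2-fold higher, with sums of 10.03 against 1.22 FPKM, and Pax6 and Olig2 were lower, at 8.18 against 21.9 FPKM and 10.5 against 22.1 FPKM. Their part in the result was not tested.

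Suz12delta and Eednull day 5 cells had lower anterior and higher posterior Hox levels than E14 day 5 cells. In Suz12delta cells 22 of 38 genes were at least 2-fold higher and 12 lower, where 26.6% and 9.52% of all genes were. In Eednull cells 18 of 37 were higher and 15 lower, where 21.6% and 11.3% of all genes were. By paralog group, 9 of 14 anterior genes were lower in Suz12delta and 12 of 14 in Eednull cells, while 12 of 12 and 11 of 11 posterior genes were higher. Every posterior gene was at or under 0.0586 FPKM in E14, below the minimum of 0.1 FPKM. A posterior gene was therefore compared only where its mutant value reached the minimum, and none could be called lower. Hoxd12, at 0.0770 FPKM in Eednull cells, was not compared there. The median log2 ratios of anterior, central and posterior genes were -1.55, 2.07 and 4.32 in Suz12delta cells and -2.10, 1.96 and 4.66 in Eednull cells, and those of all genes 0.26 and 0.08. The 2 comparisons share the E14 library. Part of these calls rest on genes listed at 0 in E14. With only genes above 0 in both libraries, a choice made after seeing the data, 14 were higher in Suz12delta and 11 in Eednull cells.

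**Figure D3:**
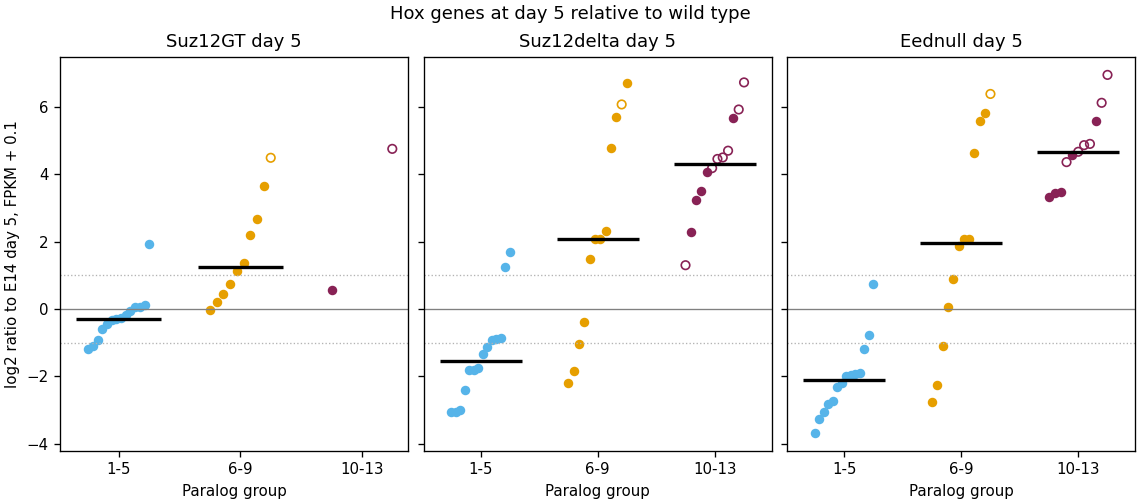
Log2 ratios to E14 day 5 (FPKM + 0.1) of the Hox genes tested, by paralog group, for Suz12GT, Suz12delta and Eednull day 5 cells; each circle is 1 gene, open where it was listed at 0 in 1 of the 2 libraries, black bars are medians of 3 or more genes, and dotted lines mark 2-fold. Anterior genes lie mostly below 0 and posterior genes all above 0 in Suz12delta and Eednull cells, with medians of -1.55 and 4.32 in the former, while the Suz12GT anterior median is -0.28. Posterior genes were under the minimum of 0.1 FPKM in E14, so those compared could only lie above 0.

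Among the anterior genes, Hoxd3 was at 75.3 FPKM in E14, 35.5 in Suz12GT, 8.99 in Suz12delta and 10.7 in Eednull day 5 cells. Its log2 ratio was -3.05 in Suz12delta and -2.80 in Eednull cells. Hoxb5, used in the lower neck and in neural crest, was at 51.8 FPKM in E14, 37.8 in Suz12GT, 6.41 in Suz12delta and 3.97 in Eednull day 5 cells, with log2 ratios of -3.00 and -3.67. For both genes E14 was highest and Suz12GT next, and the Suz12delta and Eednull values were the lowest. Hoxd4, which shares a locus with Hoxd3, was at 42.1 FPKM in E14, 22.3 in Suz12GT, 7.82 in Suz12delta and 4.97 in Eednull day 5 cells. Hoxb3 was at 51.7 FPKM in E14, 41.1 in Suz12GT, 14.7 in Suz12delta and 12.99 in Eednull day 5 cells. Hoxc4 was at 30.9 FPKM in E14, 25.7 in Suz12GT, 8.80 in Suz12delta and 4.61 in Eednull day 5 cells. For these 3 genes, too, E14 was highest, Suz12GT next and Eednull lowest. Hoxc5 was at 15.9 FPKM in E14, 6.97 in Suz12GT, 1.84 in Suz12delta and 1.56 in Eednull day 5 cells. Hoxc5 and Hoxd3 are the 2 anterior genes that were at least 2-fold lower in Suz12GT than in E14.

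In the remaining anterior genes that E14 expressed, too, the Eednull value was the lowest. Hoxb2, a regulator of hindbrain rhombomeres, was at 25.7 FPKM in E14, 26.6 in Suz12GT, 11.6 in Suz12delta and 6.82 in Eednull day 5 cells. Hoxb4, of the caudal hindbrain and cervical cord, was at 18.0 FPKM in E14, 14.6 in Suz12GT, 7.09 in Suz12delta and 3.54 in Eednull day 5 cells. Hoxa4 was at 14.9 FPKM in E14, 9.85 in Suz12GT, 7.79 in Suz12delta and 3.15 in Eednull day 5 cells. In each of the 3 the Suz12delta value was above the Eednull value and both were below E14. Hoxa3, which patterns pharyngeal arches and hindbrain, was at 36.0 FPKM in E14, 38.8 in Suz12GT, 19.6 in Suz12delta and 15.9 in Eednull day 5 cells. Hoxa5 was at 27.1 FPKM in E14, 28.3 in Suz12GT, 14.8 in Suz12delta and 6.98 in Eednull day 5 cells. Hoxa2, which sets the identity of the second pharyngeal arch, was at 8.78 FPKM in E14, 7.70 in Suz12GT, 2.52 in Suz12delta and 2.20 in Eednull day 5 cells. Hoxa3, Hoxa4 and Hoxa5 were within 2-fold of E14 in Suz12delta cells and at least 2-fold lower in Eednull cells. The group 1 genes Hoxb1 and Hoxd1 stayed low in every library, at most 1.28 and 2.07 FPKM, and were the 2 anterior genes that were higher in Suz12delta than in E14 day 5 cells.

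Central genes differed by cluster. The HoxB genes of groups 6 to 8, which E14 expressed strongly, were lower in both lines: Hoxb6 was at 35.5 FPKM in E14, 34.6 in Suz12GT, 7.73 in Suz12delta and 5.201 in Eednull day 5 cells, and Hoxb7 at 17.1 FPKM in E14, 19.9 in Suz12GT, 8.24 in Suz12delta and 7.98 in Eednull day 5 cells. With Hoxb8, given above, they were the 3 central genes that were lower in Suz12delta and in Eednull cells. HoxC and HoxD genes that E14 did not express were higher. Hoxc8, which acts in motor neurons of the caudal brachial cord, was at 0.0138 FPKM in E14, 0.191 in Suz12GT, 11.7 in Suz12delta and 6.33 in Eednull day 5 cells. Hoxc9, which defines thoracic motor neurons and represses the limb-level program, was at 0.0279 FPKM in E14, 0.0554 in Suz12GT, 6.59 in Suz12delta and 5.97 in Eednull day 5 cells. Hoxd9, of limb and lower cord, was at 0.0156 FPKM in E14, 0.0604 in Suz12GT, 3.07 in Suz12delta and 2.78 in Eednull day 5 cells. The log2 ratios in Suz12delta and Eednull cells were 6.70 and 5.82 for Hoxc8 and 5.71 and 5.57 for Hoxc9. Hoxa6 stayed within 2-fold of E14 in all 3 mutant lines, at 3.86 FPKM in E14, 6.52 in Suz12GT, 2.95 in Suz12delta and 3.99 in Eednull day 5 cells.

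Posterior genes, which are normally used in the lumbar and sacral cord, the tail and the distal limb, reached 1 FPKM for 10 of 12 genes in Suz12delta and 11 of 12 in Eednull cells. Hoxa10 was the highest in both. Hoxa10, with Hoxc10 and Hoxd10 the mark of lumbar motor neurons, was at 10.5 FPKM in Suz12delta and 12.2 in Eednull day 5 cells, and was listed at 0 in E14 and Suz12GT. Hoxd13 was at 0.0426 FPKM in E14, 0.110 in Suz12GT, 7.11 in Suz12delta and 6.68 in Eednull day 5 cells, with log2 ratios of 5.66 and 5.57 in Suz12delta and Eednull cells. Both genes had similar levels in the 2 lines and at most 0.110 FPKM in E14 and Suz12GT cells. Hoxc10 was at 0.0147 FPKM in Suz12GT, 2.49 in Suz12delta and 2.88 in Eednull day 5 cells, and was listed at 0 in E14. Hoxd10 was at 1.71 FPKM in Suz12delta and 1.95 in Eednull day 5 cells, and was listed at 0 in E14 and Suz12GT. The group 10 genes of HoxC and HoxD were thus a few times lower than Hoxa10. Hoxa11, needed for forearm and kidney, was at 2.16 FPKM in Suz12delta and 2.81 in Eednull day 5 cells, and was listed at 0 in E14 and Suz12GT. Hoxc11 was at 0.0123 FPKM in E14, 0.0377 in Suz12GT, 1.78 in Suz12delta and 2.55 in Eednull day 5 cells. Hoxd11, which acts with Hoxa11 in the forearm, was at 0.0586 FPKM in E14, 0.0583 in Suz12GT, 1.39 in Suz12delta and 1.64 in Eednull day 5 cells. All 3 group 11 genes lay between 1.39 and 2.81 FPKM in the 2 lines. Hoxa13, of the digits and hindgut, was at 0.0265 FPKM in Suz12GT, 2.09 in Suz12delta and 2.44 in Eednull day 5 cells, and was listed at 0 in E14. Hoxc13 was at 0.0268 FPKM in E14, 0.0184 in Suz12GT, 1.32 in Suz12delta and 1.31 in Eednull day 5 cells. Of the 4 day 5 libraries, Hoxa13 and Hoxc13 were above 1 FPKM in Suz12delta and Eednull cells only. Hoxc12 was at 0.0158 FPKM in E14, 0.462 in Suz12delta and 1.05 in Eednull day 5 cells, and was listed at 0 in Suz12GT. Hoxd12 was the lowest posterior gene in both lines, at 0.146 and 0.0770 FPKM, and its highest value in any library was 0.936 FPKM, in Suz12delta ESCs.

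Markers of other cell types also differed from E14 at day 5. At day 5, 11 of 12 fibroblast markers were at least 2-fold higher than in E14 in Suz12delta and 10 of 12 in Eednull cells, as were 6 of 6 endoderm markers in each. Over all genes 26.6% and 21.6% were higher. The 6 mesoderm markers summed to 0.789 FPKM in E14, 4.67 in Suz12GT, 17.6 in Suz12delta and 16.8 in Eednull cells, and the endoderm markers to 3.69, 29.1, 41.4 and 36.0 FPKM. Of the mesoderm markers, Tbx6 was listed at 0 in all 4 day 5 libraries. The part of these cell types in the Hox levels was not tested. The posterior Hox genes summed to 2.87 FPKM in Suz12GT, 37.1 in Suz12delta and 42.4 in Eednull cells.

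In ESCs most posterior genes already stood above wild type in the Suz12delta and Eednull lines. Of 38 genes tested against E14 ESCs, 22 were at least 2-fold higher and 1 lower in Suz12delta ESCs, where 18.0% and 22.8% of all genes were, and 32 were higher and 3 lower in Eednull ESCs, where 22.4% and 11.9% were. The median log2 ratio was 1.46 and 1.79, against -0.28 and 0.04 over all genes. Of the posterior genes 10 of 12 in Suz12delta and 12 of 12 in Eednull ESCs were higher, of the central genes 9 and 10 of 12, and of the anterior genes 3 and 10 of 14. The 3 lower genes of Eednull ESCs were Hoxd3, Hoxd4 and Hoxd8, all listed at 0 there, and the lower gene of Suz12delta ESCs was Hoxa4.

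Against CJ7, the other wild-type line, the posterior counts were similar, but fewer anterior genes were higher in Eednull ESCs. Against CJ7, 21 of 38 genes were higher and 3 lower in Suz12delta ESCs (background 21.1% and 24.0%), and 27 were higher and 3 lower in Eednull ESCs (background 20.5% and 10.7%). The posterior genes higher were 11 and 12 of 12, the central genes 8 and 9 of 12, and the anterior genes 2 and 6 of 14. Against E14 the anterior counts had been 3 and 10 of 14. Of the HoxB genes 3 and 6 of 10 were higher than in CJ7, and 3 and 9 of 10 higher than in E14. The lower genes were Hoxa2, Hoxa4 and Hoxb7 in Suz12delta and again Hoxd3, Hoxd4 and Hoxd8 in Eednull ESCs. Between the wild-type lines, 4 of 31 genes were higher and 2 lower in CJ7 than in E14, where 15.7% and 14.7% of all genes were, and the median log2 ratio was 0.27, against -0.12 over all genes. The higher genes were Hoxa10, Hoxb7, Hoxc8 and Hoxd9, and the lower ones Hoxb6 and Hoxc13. The 2 comparisons with each control share that control library. All of these values are low: no Hox gene passed 1.08 FPKM in wild-type ESCs or 3.29 FPKM in Suz12delta ESCs, and 2 genes passed 5 FPKM in Eednull ESCs. With a pseudocount of 1 the number of higher genes was 7 in Suz12delta and 12 in Eednull ESCs against E14.

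**Figure D4:**
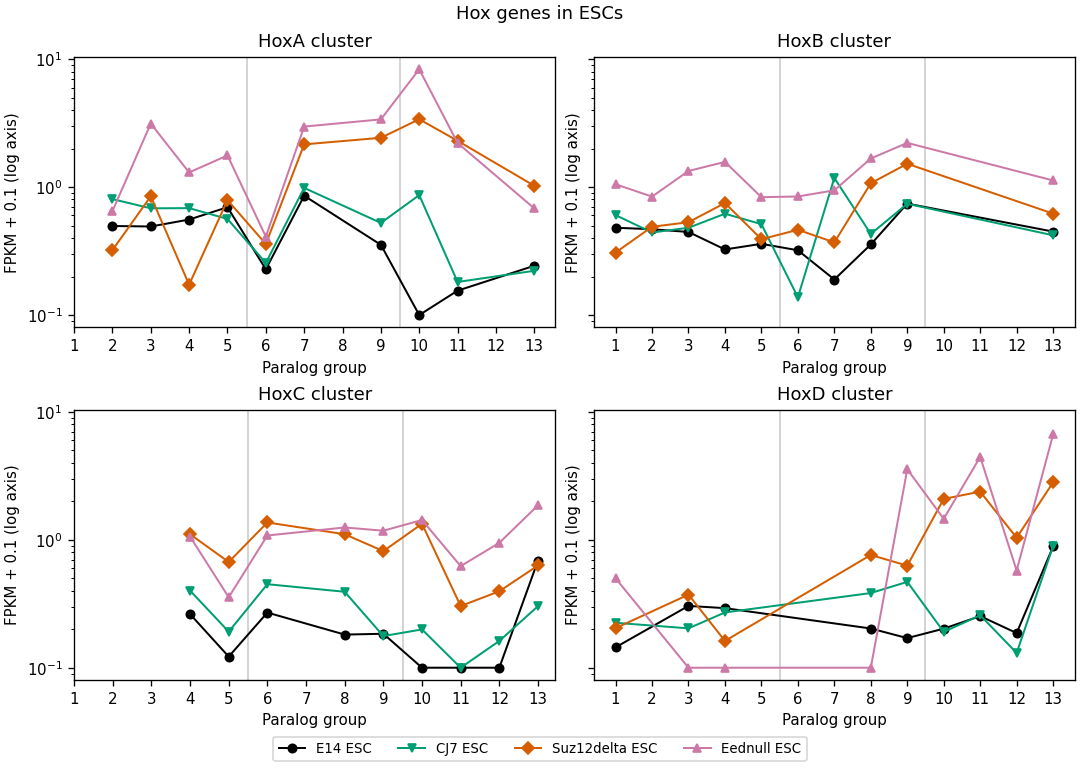
FPKM + 0.1 (log axis) against paralog group in ESCs, 1 panel per cluster; each point is 1 gene in 1 library (E14 black circles, CJ7 green triangles pointing down, Suz12delta orange diamonds, Eednull pink triangles). The wild-type lines stay below or near 1 FPKM throughout, the Suz12delta and Eednull lines lie above them for most posterior genes (not Hoxc13 of Suz12delta), with Hoxa10 at 8.23 FPKM the highest value, and Hoxd3, Hoxd4 and Hoxd8 of Eednull sit on the floor because they were listed at 0.

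The highest Hox gene of both mutant ESC lines was Hoxa10, at 0.765 FPKM in CJ7, 3.29 in Suz12delta and 8.23 in Eednull ESCs, and was listed at 0 in E14. Its log2 ratio to CJ7 was 1.97 in Suz12delta and 3.27 in Eednull ESCs. Hoxd13 was at 0.786 FPKM in E14, 0.794 in CJ7, 2.71 in Suz12delta and 6.55 in Eednull ESCs, with log2 ratios to E14 of 1.67 and 2.91. Hoxa10 was also the highest posterior gene of both lines at day 5. Hoxd11 was at 0.153 FPKM in E14, 0.157 in CJ7, 2.28 in Suz12delta and 4.34 in Eednull ESCs, with log2 ratios of 3.23 and 4.13. Hoxa11 was at 0.0551 FPKM in E14, 0.0814 in CJ7, 2.20 in Suz12delta and 2.11 in Eednull ESCs, with ratios of 3.89 and 3.83. Both wild-type lines were well below both mutant lines for these group 11 genes. Hoxd10 was at 0.102 FPKM in E14, 0.0904 in CJ7, 1.99 in Suz12delta and 1.36 in Eednull ESCs. Hoxc10 was at 0.0991 FPKM in CJ7, 1.23 in Suz12delta and 1.33 in Eednull ESCs, and was listed at 0 in E14. Each was above 1 FPKM in both mutant lines and at or under 0.102 FPKM in the wild-type lines. Hoxc11 was at 0.203 FPKM in Suz12delta and 0.522 in Eednull ESCs, and was listed at 0 in E14 and CJ7. Hoxc12 was at 0.0618 FPKM in CJ7, 0.296 in Suz12delta and 0.846 in Eednull ESCs, and was listed at 0 in E14. Both stayed under 1 FPKM. The group 13 genes differed among themselves, and Hoxa13 was at 0.143 FPKM in E14, 0.122 in CJ7, 0.924 in Suz12delta and 0.582 in Eednull ESCs. Hoxb13 was at 0.349 FPKM in E14, 0.320 in CJ7, 0.521 in Suz12delta and 1.03 in Eednull ESCs. Hoxc13 was at 0.587 FPKM in E14, 0.203 in CJ7, 0.530 in Suz12delta and 1.76 in Eednull ESCs. For Hoxb13 and Hoxc13 the Suz12delta value was within 2-fold of E14.

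Among the central genes of ESCs, Hoxa9 was at 0.254 FPKM in E14, 0.425 in CJ7, 2.33 in Suz12delta and 3.28 in Eednull ESCs. Hoxa7 was at 0.756 FPKM in E14, 0.886 in CJ7, 2.06 in Suz12delta and 2.87 in Eednull ESCs. Hoxb9 was at 0.643 FPKM in E14, 0.641 in CJ7, 1.42 in Suz12delta and 2.12 in Eednull ESCs. All 3 were above 1 FPKM in the mutant lines and below it in the wild-type lines. Hoxc8 was at 0.0815 FPKM in E14, 0.292 in CJ7, 1.005 in Suz12delta and 1.15 in Eednull ESCs. Hoxc9 was at 0.0842 FPKM in E14, 0.0768 in CJ7, 0.715 in Suz12delta and 1.08 in Eednull ESCs. Hoxc6 was at 0.170 FPKM in E14, 0.350 in CJ7, 1.26 in Suz12delta and 0.980 in Eednull ESCs. These HoxC genes lay between 0.715 and 1.26 FPKM in the mutants. Hoxd9 was at 0.0703 FPKM in E14, 0.369 in CJ7, 0.528 in Suz12delta and 3.45 in Eednull ESCs. Hoxd8 was at 0.103 FPKM in E14, 0.283 in CJ7 and 0.660 in Suz12delta ESCs, and was listed at 0 in Eednull. The Eednull library held the highest Hoxd9 value and listed its neighbour Hoxd8 at 0. Hoxb8 was at 0.256 FPKM in E14, 0.330 in CJ7, 0.972 in Suz12delta and 1.57 in Eednull ESCs. Hoxb7 was at 0.0896 FPKM in E14, 1.08 in CJ7, 0.270 in Suz12delta and 0.844 in Eednull ESCs. Hoxb6 was at 0.221 FPKM in E14, 0.0377 in CJ7, 0.364 in Suz12delta and 0.745 in Eednull ESCs. For Hoxb7 the highest value was that of a wild-type line, CJ7, with a log2 ratio to E14 of 2.64. Hoxa6 was at 0.128 FPKM in E14, 0.155 in CJ7, 0.259 in Suz12delta and 0.310 in Eednull ESCs, low in each line.

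Anterior genes had the fewest differences in Suz12delta ESCs. Hoxa3 was at 0.392 FPKM in E14, 0.583 in CJ7, 0.747 in Suz12delta and 3.04 in Eednull ESCs. Hoxa5 was at 0.596 FPKM in E14, 0.464 in CJ7, 0.692 in Suz12delta and 1.67 in Eednull ESCs. Hoxa4 was at 0.458 FPKM in E14, 0.585 in CJ7, 0.0728 in Suz12delta and 1.201 in Eednull ESCs. In HoxA the Eednull value was the highest for each of these, and the Suz12delta value of Hoxa4 was the lowest. Hoxa2 was at 0.397 FPKM in E14, 0.706 in CJ7, 0.221 in Suz12delta and 0.548 in Eednull ESCs. Hoxb2 was at 0.369 FPKM in E14, 0.342 in CJ7, 0.390 in Suz12delta and 0.743 in Eednull ESCs. Hoxb3 was at 0.346 FPKM in E14, 0.381 in CJ7, 0.431 in Suz12delta and 1.24 in Eednull ESCs. The wild-type and Suz12delta values of Hoxb2 and Hoxb3 lay close together. Hoxb4 was at 0.226 FPKM in E14, 0.519 in CJ7, 0.651 in Suz12delta and 1.47 in Eednull ESCs. Hoxb5 was at 0.260 FPKM in E14, 0.413 in CJ7, 0.291 in Suz12delta and 0.734 in Eednull ESCs. Hoxc4 was at 0.162 FPKM in E14, 0.301 in CJ7, 1.005 in Suz12delta and 0.959 in Eednull ESCs. Of these 3 only Hoxc4 had the Suz12delta value above the Eednull value. Hoxc5 was at 0.0221 FPKM in E14, 0.0913 in CJ7, 0.570 in Suz12delta and 0.255 in Eednull ESCs. Hoxd3 was at 0.204 FPKM in E14, 0.103 in CJ7 and 0.273 in Suz12delta ESCs, and was listed at 0 in Eednull. Hoxd4 was at 0.192 FPKM in E14, 0.170 in CJ7 and 0.0619 in Suz12delta ESCs, and was listed at 0 in Eednull. The HoxD pair did not pass 0.273 FPKM in any ESC library. Hoxb1 and Hoxd1 ranged from 0.0443 to 0.953 FPKM over the 4 ESC libraries.

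Fibroblast markers were also higher in Suz12delta than in E14 ESCs, and less so in Eednull ESCs. Against E14, 12 of 12 were at least 2-fold higher in Suz12delta, 4 in Eednull and 3 in CJ7 ESCs, and none was at 0 in an ESC library. Over all genes 18.0%, 22.4% and 15.7% were higher, so the Eednull and CJ7 counts lie closer to that background. Col1a1, Col1a2 and Col3a1, collagen genes and the highest of the list, were at 27.9, 27.4 and 10.3 FPKM in E14 and at 148, 215 and 53.9 FPKM in Suz12delta ESCs. The 12 fibroblast markers summed to 630.0 FPKM in Suz12delta and 285 in Eednull ESCs, and the Hox genes to 34.7 and 60.7 FPKM. From ESCs to day 5, 7 of 12 fibroblast markers were lower and 0 higher in the Suz12delta line, and 6 lower and 2 higher in the Eednull line. Of the 12 posterior Hox genes, 6 were higher and 1 lower in Suz12delta cells over the same step, and 4 higher and 2 lower in Eednull cells. Over all genes 26.9% were higher and 12.6% lower in the Suz12delta line, and 18.4% and 24.8% in the Eednull line. The part of fibroblast RNA in the ESC values was not tested.

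Within each mutant line, most Hox genes were higher at day 5 than in ESCs. In Suz12delta cells 32 of 38 were at least 2-fold higher and 1 lower, where 26.9% and 12.6% of all genes were, and the median log2 ratio was 2.84, against 0.43. In Eednull cells 27 of 38 were higher and 3 lower, where 18.4% and 24.8% were, and the median was 1.86, against -0.08. All 14 anterior genes were higher in Suz12delta and 12 of 14 in Eednull cells, 12 and 11 of 12 central genes, and 6 and 4 of 12 posterior genes. The lower genes were Hoxd12 in Suz12delta and Hoxb1, Hoxd11 and Hoxd12 in Eednull cells. Posterior genes made up 49.3% of the summed Hox FPKM of Suz12delta ESCs and 14.8% at day 5, and 48.0% and 21.1% in Eednull cells. The 3 genes Hoxa9, Hoxa13 and Hoxb13 were higher at day 5 in both mutant lines and lower in E14, a combination that was not counted over all genes.

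**Figure D5:**
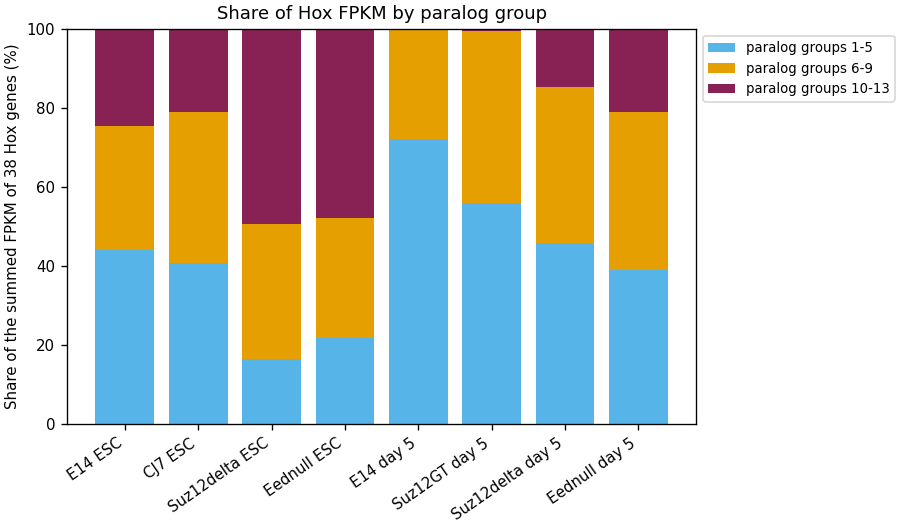
Stacked bars of the share (%) of the summed FPKM of the 38 Hox genes held by anterior (groups 1 to 5), central (6 to 9) and posterior (10 to 13) genes in each of the 8 libraries. The posterior share is 49.3% and 48.0% in Suz12delta and Eednull ESCs, 14.8% and 21.1% at day 5, and 0.0282% in E14 day 5 cells; bars show shares, not amounts, which were 9.17 FPKM in all for E14 and 12.9 for CJ7 ESCs.

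Higher and lower genes were also counted in each of the 4 clusters. Over all genes, 16.8% were higher and 4.4% lower than in E14 in Suz12GT day 5 cells. These shares were 26.6% and 9.52% in Suz12delta, and 21.6% and 11.3% in Eednull day 5 cells. In Suz12delta and Eednull day 5 cells HoxB genes were mostly lower than in E14, with 3 higher and 7 lower of 10 in Suz12delta and 1 higher and 7 lower of 10 in Eednull cells. In Suz12GT cells they were not, with 2 higher and 0 lower of 10, near the share of all genes, and a median log2 ratio of 0.0064. The other clusters of Suz12GT cells had 2 higher and 0 lower of 7 tested in HoxA, 2 higher and 1 lower of 4 in HoxC and 2 higher and 1 lower of 5 in HoxD. HoxB has a single posterior gene, Hoxb13, and E14 expressed 8 of its 10 genes. In HoxC the counts were 7 higher and 2 lower of 9 in Suz12delta and 7 higher and 2 lower of 9 in Eednull cells, and E14 expressed only Hoxc4 and Hoxc5. HoxA had 5 higher and 1 lower of 10 and 5 higher and 4 lower of 10, and HoxD 7 higher and 2 lower of 9 and 5 higher and 2 lower of 8 tested. In ESCs, against E14, 8 of 9 HoxC genes were higher in Suz12delta and 9 of 9 in Eednull, and 3 and 9 of 10 HoxB genes. Over all genes 18.0% and 22.4% were higher. HoxB held 53.2% of the summed Hox FPKM of E14 day 5 cells, 60.8% of Suz12GT, 39.1% of Suz12delta and 36.2% of Eednull cells.

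HOX proteins bind DNA with cofactors of the TALE class, the PBX, MEIS and PREP (Pknox) proteins. The 9 cofactor genes were counted as above. From E14 ESCs to day 5 7 of 9 were at least 2-fold higher and 0 lower, where 18.3% and 25.8% of all genes were. Against E14 day 5 cells, 0 were higher and 0 lower in Suz12GT cells, 0 and 3 in Suz12delta, and 0 and 3 in Eednull cells. Over all genes 16.8%, 26.6% and 21.6% were higher and 4.4%, 9.52% and 11.3% lower in these 3 lines. Meis2 was at 79.9 FPKM in E14, 76.9 in Suz12GT, 53.0 in Suz12delta and 65.6 in Eednull day 5 cells, and Meis1 at 65.2 FPKM in E14, 86.3 in Suz12GT, 48.0 in Suz12delta and 48.6 in Eednull day 5 cells.

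Of 18 regulators of Hox genes, 7 were at least 2-fold higher and 7 lower in E14 day 5 cells than in E14 ESCs, where 18.3% and 25.8% of all genes were. Against E14 day 5 cells 4 of 16 tested were higher and 1 lower in Suz12GT, 6 of 17 and 2 in Suz12delta, and 6 of 16 and 1 in Eednull cells. Among all genes 16.8%, 26.6% and 21.6% were higher and 4.4%, 9.52% and 11.3% lower in these 3 lines, so that several of these counts lie near that background. In ESCs against E14 they were 4 higher and 4 lower in Suz12delta and 6 higher and 0 lower in Eednull, where 18.0% and 22.8% and then 22.4% and 11.9% of all genes were. The highest 3 were Wdr5, a subunit of Trithorax-type complexes, Rnf2, the ubiquitin ligase of Polycomb complex 1, and Rara, a retinoic acid receptor. At day 5 Wdr5 was at 27.5 FPKM in E14, 23.9 in Suz12GT, 37.6 in Suz12delta and 35.3 in Eednull day 5 cells. Rnf2 was at 22.5 FPKM in E14, 22.4 in Suz12GT, 21.6 in Suz12delta and 20.2 in Eednull day 5 cells, and Rara at 26.1 FPKM in E14, 20.5 in Suz12GT, 20.2 in Suz12delta and 19.8 in Eednull day 5 cells. None of the 3 differed by 2-fold at day 5. Another 2 regulators were picked after their values were seen. Cdx2, an activator of central and posterior Hox genes, was at 0.00927 FPKM in E14, 0.0668 in Suz12GT, 6.77 in Suz12delta and 5.79 in Eednull day 5 cells, and at 0.394 FPKM in E14, 0.296 in CJ7, 1.80 in Suz12delta and 2.62 in Eednull ESCs. Aldh1a2, which makes retinoic acid, was at 0.935 FPKM in E14, 8.29 in Suz12GT, 29.1 in Suz12delta and 34.3 in Eednull day 5 cells. In both, Suz12delta and Eednull day 5 cells had the highest values. Other regulators of the list did not follow this order. Gdf11 was at 13.8 FPKM in E14, 7.57 in Suz12delta and 6.26 in Eednull day 5 cells. Cdx4 was listed at 0 in every day 5 library. Cdx1 was at 0.108 FPKM in Suz12GT, 0.568 in Suz12delta and 0.0421 in Eednull day 5 cells, and was listed at 0 in E14. The part of these regulators in the Hox levels was not tested.

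The 14 genes that flank the clusters were counted in the same way. Against E14 ESCs 3 were at least 2-fold higher and 1 lower in Suz12delta ESCs (14 tested) and 3 and 0 in Eednull ESCs (13 tested), where 18.0% and 22.8% and then 22.4% and 11.9% of all genes were. At day 5 they were 2 and 0 of 12 in Suz12GT, 5 and 0 of 14 in Suz12delta and 4 and 0 of 13 in Eednull cells, beside 16.8% and 4.4%, 26.6% and 9.52%, and 21.6% and 11.3% of all genes. The highest were Cbx5, which encodes HP1 alpha, Mtx2 and Atp5g1, both mitochondrial, and at day 5 Cbx5 was at 66.3 FPKM in E14, 51.8 in Suz12GT, 55 in Suz12delta and 59.7 in Eednull day 5 cells, Mtx2 at 64.7 FPKM in E14, 71.5 in Suz12GT, 64.6 in Suz12delta and 61.8 in Eednull day 5 cells and Atp5g1 at 38.3 FPKM in E14, 47.9 in Suz12GT, 67.0 in Suz12delta and 47.2 in Eednull day 5 cells. All 3 differed by less than 2-fold from E14. Evx1 and Evx2, homeobox genes beside HoxA and HoxD chosen after their values were seen, were low throughout: Evx1 was at 0.0380 FPKM in E14, 0.103 in Suz12GT, 0.996 in Suz12delta and 0.498 in Eednull day 5 cells, and Evx2 at 0.349 FPKM in Suz12delta and 0.256 in Eednull day 5 cells, and was listed at 0 in E14 and Suz12GT. Of the 3 non-coding RNAs listed for the clusters (Hotair, Hottip, Hotairm1), 0 were found in the table under these symbols.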

How the data were processed

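RNA-seq of 8 mouse ESC and day 5 libraries, 1 per condition, was used. Per the submitters' notes and methods, the authors aligned reads to NCBI build 37 with Bowtie 0.12.7 and Tophat 1.3.2, using an Ensembl-based annotation, and estimated 1 FPKM value per gene and library with Cufflinks 1.2.1 and Cuffdiff, with sequence bias and multiply mapped reads corrected. Reads per library are unknown, so no interval is given. The deposited FPKM summed to between 389165 and 797748 per library, and these sums are not depths. All 8 columns were assigned from their names and the sample labels, and 0 other sample columns were present. Values were used without rescaling, and a single value per condition allows no test.

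From these values log2 ratios with a pseudocount of 0.1, counts of genes at least 2-fold apart and medians were computed for 11 comparisons with Python 3.11.15, NumPy 2.4.6 and pandas 2.3.3, plotted with matplotlib 3.10.9, and the code was tested on simulated data. The members and lists were chosen with earlier results of these data known. Values are given for Hox genes at 5 FPKM or more in a library (25), or at least 4-fold from wild type of the same day at 1 FPKM or more (29), 35 genes in all. Hoxb1, Hoxd1 and Hoxd12 are given by range, apart from single values. Genes of the lists are given by counts, with values for the 3 highest by mean FPKM. Kmt2a (present as Mll1) and Map2 were not found under those symbols. Coordinates on build 37 are from GENCODE vM1. As alternatives, the pseudocount was set to 1 or 0.01, the minimum to 1 FPKM or none, and libraries were scaled to a common 75th percentile (17842 genes). Further ones were a 4-fold change, expression levels of 0.5 and 3 FPKM and, added after seeing the data, only genes above 0 in both libraries and leaving out Hoxd3, Hoxd4 and Hoxd8. Some genes covered by these rules are not reported here.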

Additional observations from a re-analysis of the deposited data

Results flagged for a closer look

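Between ESCs and day 5, 3 Hox genes went in opposite directions, at least 2-fold lower in E14 and at least 2-fold higher in both Suz12delta and Eednull cells. With 1 library per condition the difference was not tested. The combined rule was not counted over all genes, so the 3 genes have no background beside them. Taken singly, 25.8% of all genes were lower in E14, and 26.9% and 18.4% were higher in Suz12delta and Eednull cells. Hoxa9 was at 0.254 FPKM in E14 ESCs and listed at 0 at day 5, while it went from 2.33 to 6.61 FPKM in Suz12delta and from 3.28 to 8.23 FPKM in Eednull cells. Hoxa13 was at 0.143 FPKM and then listed at 0 in E14, against 0.924 to 2.09 FPKM in Suz12delta and 0.582 to 2.44 FPKM in Eednull cells. Hoxb13 was at 0.349 FPKM and then listed at 0 in E14, against 0.521 to 5.95 FPKM in Suz12delta and 1.03 to 6.84 FPKM in Eednull cells. The lower direction in E14 rests, for all 3, on a day 5 value listed at 0 and an ESC value under 0.5 FPKM.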

How the results depend on the processing

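No paired analysis was possible because each condition has 1 library. No replicate could be left out for the same reason. Over the alternatives run, 139 counts over the 38 genes stayed within 1.5 times the count reported and 61 did not. For counts by paralog group these were 52 and 20, for median log2 ratios 180 and 48, and for single log2 ratios 61 and 38, all taken as 1.5-fold. No median or ratio of at least 2-fold changed sign. The median of posterior genes in Suz12delta ESCs against E14 went from 2.27 to 0.94 with a pseudocount of 1 and 3.98 with 0.01, that of Eednull ESCs from 2.88 to 0.99 and 4.17, and the ratio of Hoxa11 in Suz12delta ESCs from 3.89 to 1.60 and 5.09. The cause was not tested except where the setting itself removes genes. Counts below are of Hox genes at least 2-fold higher or lower unless stated.

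With a pseudocount of 1, the genes higher than E14 were 7 in Suz12delta and 12 in Eednull ESCs and those lower 0 and 0. Higher than CJ7 were 7 in Suz12delta and 11 in Eednull ESCs and lower 0 and 0. Between CJ7 and E14 ESCs 0 were higher and 0 lower, and from ESCs to day 5 0 were lower in E14, 0 in Suz12delta and 1 in Eednull. With a pseudocount of 0.01, 8 were higher in CJ7 than in E14, and 5 were lower than CJ7 and 2 lower than E14 in Suz12delta ESCs. With a minimum of 1 FPKM, 12 were higher in Suz12delta and 20 in Eednull than in E14 ESCs, with 0 and 0 lower. Against CJ7 12 were higher and 1 lower in Suz12delta, and 0 lower in Eednull. CJ7 against E14 then gave 1 higher and 0 lower, and from ESCs to day 5 0 were lower in E14, 0 in Suz12delta and 1 in Eednull.

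With a change of at least 4-fold, higher than E14 were 13 in Suz12delta and 18 in Eednull ESCs and lower 0 and 0, and higher than CJ7 were 8 and 15 and lower 0 and 0. CJ7 against E14 gave 2 higher and 0 lower. Over differentiation 3 were lower in E14 and 0 in Eednull. At day 5 against E14, 5 were higher and 0 lower in Suz12GT, 5 lower in Suz12delta and 9 lower in Eednull. Scaled to the same 75th percentile, 7 were higher in CJ7 than in E14 ESCs, and 2 were lower in Suz12delta day 5 cells than in Suz12delta ESCs. With only genes above 0 in both libraries, 14 were higher in Suz12delta and 11 in Eednull than in E14 at day 5, 2 were lower in E14 over differentiation, and 0 were lower in Eednull ESCs than in E14 and 0 than in CJ7. Without Hoxd3, Hoxd4 and Hoxd8, 0 were lower in Eednull ESCs than in E14, 0 than in CJ7, and 1 was lower in Suz12GT at day 5.

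At a level of 0.5 FPKM, 5 genes counted as expressed in E14, 10 in CJ7, 24 in Suz12delta and 31 in Eednull ESCs. At 3 FPKM these were 0 in CJ7, 1 in Suz12delta and 6 in Eednull ESCs. With no minimum, each of the 22 counts of higher or lower genes stayed within 1.5 times. The ESC counts therefore depend on values near or under 1 FPKM, where the unknown depth limits what can be compared.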

Other observations

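The cluster spans also hold 24 other transcripts in the table, described here after their values were seen, of which 16 reached 1 FPKM in a library and 13 share a locus with a Hox gene, so that reads may have been divided between them. Gm53, which lies between Hoxb13 and Hoxb9 and shares no locus with either, was at 0.0269 FPKM in E14, 3.66 in Suz12GT, 13.5 in Suz12delta and 16.1 in Eednull day 5 cells, and at 2.71 FPKM in E14, 2.26 in CJ7, 4.34 in Suz12delta and 4.18 in Eednull ESCs. Its day 5 values were lowest in E14 and highest in Eednull cells, as for Hoxb13. Hoxa11as, antisense to Hoxa11, was at 0.613 FPKM in E14, 0.521 in CJ7, 5.79 in Suz12delta and 2.26 in Eednull ESCs, and at 3.98 FPKM in Suz12delta and 6.69 in Eednull day 5 cells, and was listed at 0 in E14 and Suz12GT. In both cases the Suz12delta and Eednull values were the highest. Hoxb3os, opposite Hoxb3, was at 53.8 FPKM in E14, 39.0 in Suz12GT, 16.7 in Suz12delta and 13.6 in Eednull day 5 cells, highest in E14 like Hoxb3. 0610040B09Rik, in the locus of Hoxb5 and Hoxb6, was at 23.8 FPKM in E14, 37.3 in Suz12GT, 12.2 in Suz12delta and 16.1 in Eednull day 5 cells, with Suz12GT highest.

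The highest markers of other lineages were as follows at day 5. Of the endoderm regulators, Gata4 was at 11.6 FPKM in Suz12GT, 10.3 in Suz12delta and 12.1 in Eednull day 5 cells, and was listed at 0 in E14. Foxa2 was at 2.96 FPKM in E14, 11.8 in Suz12GT, 11.97 in Suz12delta and 13.5 in Eednull day 5 cells, and Gata6 at 0.653 FPKM in E14, 2.18 in Suz12GT, 5.82 in Suz12delta and 4.07 in Eednull day 5 cells. Each had its lowest value in E14, and Gata4 and Foxa2 were close to each other in the 3 mutants. Of the mesoderm markers, Meox1 was at 0.435 FPKM in E14, 3.74 in Suz12GT, 7.86 in Suz12delta and 8.51 in Eednull day 5 cells, Kdr at 0.235 FPKM in E14, 0.897 in Suz12GT, 8.45 in Suz12delta and 7.49 in Eednull day 5 cells, and T at 0.104 FPKM in E14, 0.0153 in Suz12GT, 0.944 in Suz12delta and 0.671 in Eednull day 5 cells. Of the neural markers, Nes was at 24.8 FPKM in E14, 24.3 in Suz12GT, 14.7 in Suz12delta and 9.21 in Eednull day 5 cells. Pax6 was at 21.9 FPKM in E14, 8.18 in Suz12GT, 7.24 in Suz12delta and 9.35 in Eednull day 5 cells, and Elavl3 at 24.6 FPKM in E14, 29.8 in Suz12GT, 0.430 in Suz12delta and 0.373 in Eednull day 5 cells. Pax6 was lower than in E14 in all 3 mutants, and Elavl3 in Suz12delta and Eednull cells but not in Suz12GT cells. In the motor neuron list Lhx3 was at 25.8 FPKM in E14, 25.3 in Suz12GT, 2.52 in Suz12delta and 0.356 in Eednull day 5 cells, Isl1 at 18.1 FPKM in E14, 22.8 in Suz12GT, 5.32 in Suz12delta and 4.43 in Eednull day 5 cells, and Olig2 at 22.1 FPKM in E14, 10.5 in Suz12GT, 0.107 in Suz12delta and 0.0455 in Eednull day 5 cells. Among the ESC markers, Dppa5a, Tdgf1 and Nanog were at 407, 150.2 and 155 FPKM in E14 ESCs and at 136, 123 and 88.0 FPKM in Suz12delta ESCs.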
